A study of Mus musculus with 8 samples.

Results

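Aminoacyl-tRNA synthetases, the enzymes that join each amino acid to its transfer RNA, were followed by RNA sequencing in the mouse macrophage-like line RAW264.7. Genes were chosen by name: a letter for the amino acid followed by "ars", with an optional 2 for the mitochondrial enzyme, together with the phenylalanyl subunits Farsa and Farsb and the fused glutamyl-prolyl enzyme Eprs. Of the 42454 rows in the count table, 37 matched, and the 36 with at least 10 counts summed over the libraries were kept, 19 cytosolic and 17 mitochondrial. Vars, the cytosolic valyl enzyme, was left out because it and 3 numbered copies of it held 0 counts, whereas the lowest genes kept were Vars2 with 321 summed counts and Pars2 with 407. Vars2, Farsb and Yars also have numbered copies in the assembly, so their counts are uncertain.

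The 8 libraries of polyadenylated RNA form 4 groups of 2 by their labels. Cells received lipopolysaccharide (LPS, 10 ng/ml) and interferon-gamma (IFN-γ, 20 ng/ml) for 24 h with Tubuloside B (LPS_IFNg_TubB), that stimulus alone (LPS_IFNg), Tubuloside B alone (TubB) or the solvent DMSO (mock). LPS is a bacterial cell wall component, IFN-γ a cytokine that activates macrophages, and Tubuloside B a plant phenylethanoid glycoside. The dose of Tubuloside B and the time in the TubB and mock groups are not given in the sources used here. All groups used 1 cell line, and no label states that replicates were cultured separately, so the p-values cover only variation among these 8 libraries, which may be technical.

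Genes known to respond to LPS and IFN-γ went against the labels. Summed over Nos2, Ptgs2, Il6, Irf1 and Cxcl10, levels were 8369 to 10323 CPM (counts scaled by the library total and TMM factors) in the libraries labelled LPS_IFNg_TubB and 218 to 249 CPM in those labelled LPS_IFNg. The same sum was 7847 to 9980 CPM in those labelled TubB and 206 to 229 CPM in those labelled mock. Each name below therefore means the libraries so labelled, and every direction stands under this conflict. Library totals ran from 4767894 to 8413834 counts, which makes 1 count worth 0.126 to 0.230 CPM. The 7 macrophage markers summed to 6908.5 and 6829.0 CPM in LPS_IFNg_TubB against 6533.7 and 6701.1 CPM in LPS_IFNg, and to 6775.2 and 6440.4 CPM in TubB against 6502.0 and 6426.6 CPM in mock. In each of the contrasts LPS_IFNg_TubB minus LPS_IFNg and TubB minus mock, 4 of the 7 were called higher (57.1%) and 1 lower (14.3%). Over all genes tested the shares were 26.2% higher and 25.0% lower in the first of these contrasts, and 26.3% and 24.9% in the second. Adgre1, the gene of the surface protein F4/80, had 77.3 to 100.3 CPM in the LPS_IFNg_TubB and TubB libraries and 10.9 to 15.8 CPM in the LPS_IFNg and mock libraries. Csf1r, the receptor of the growth factor CSF1, had 179 to 216 CPM in the LPS_IFNg_TubB and TubB libraries and 448 to 495 CPM in the others. The part of these differences in the synthetase values was not tested. The T cell markers Cd3e, Cd3g and Cd8a, and Ly6g and Mpo of neutrophils, held 0 counts. Of the other neutrophil markers S100a9 held 0 counts, and S100a8 had 31.4 to 51.8 CPM in the TubB and LPS_IFNg_TubB libraries and 4.59 to 5.58 CPM in the others.

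In the cytosol these enzymes supply charged tRNA to the ribosome, and in mitochondria a second set, also encoded in the nucleus, serves the translation of the few proteins made there. Gars and Kars each serve both compartments from 1 gene and are counted here as cytosolic. Part of the cytosolic set is held in a multi-synthetase complex with the scaffold proteins Aimp1, Aimp2 and Eef1e1. In general, several cytosolic synthetase genes are targets of the transcription factor Atf4 when amino acids are scarce, and Wars, the tryptophanyl enzyme, is a known interferon-induced gene.

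Promoter sequences from RefSeq (GRCm38.p6), 250 bases before to 50 after a transcription start, were searched for 27 of the 36 genes. The starts are those of the RefSeq table, and 15 of the 28 windows start at another base than the first of the gene as the count table annotates it. Others, among them those of Wars, Cars, Rars, Pars2, Hars, Hars2, Lars and Nars were not used here. The core of the amino acid response element, TGATGNAA on either strand, was found in 5 of 13 cytosolic promoters (Aars, Gars, Iars, Tars and Yars) and in 0 of 14 mitochondrial ones, and 3.97% of all 32851 promoters in the table hold it. The gamma-activated sequence TTCNNNGAA, which reads the same on both strands, was found in Kars, Aars and Nars2, and in 8.3% of all promoters. The interferon-stimulated response element core, searched on either strand, was found in Qars, and in 3.44% of all promoters. A match describes the letters and is not evidence of a bound factor.

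The 6 genes with a match between 60 bases before and 20 after the start are shown over that window, 5′ to 3′ on the gene's own strand, with the match in capitals. They are shown because they include genes that fell (Iars, Tars, Gars), 1 that rose (Kars) and 2 that were not called (Aars, Yars) in the comparisons that follow. The windows are chr13:49682070-49682149 (plus strand) for Iars, chr15:11399639-11399718 (minus) for Tars, chr6:55037941-55038020 (plus) for Gars, chr8:111033782-111033861 (plus) for Aars, chr4:129189843-129189922 (plus) for Yars and chr8:112011335-112011414 (minus) for Kars. The start used lies at the first base of the gene for Iars, Tars, Gars and Kars, but 6064 bases inside the gene for Aars and 169 for Yars. The capitals mark the amino acid response element core in the first 5 and the gamma-activated sequence in Kars.
Iars: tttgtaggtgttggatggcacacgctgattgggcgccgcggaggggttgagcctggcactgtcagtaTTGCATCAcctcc
Tars: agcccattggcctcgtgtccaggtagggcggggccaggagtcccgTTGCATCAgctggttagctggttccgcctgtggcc
Gars: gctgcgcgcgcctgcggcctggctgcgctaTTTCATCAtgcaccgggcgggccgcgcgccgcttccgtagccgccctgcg
Aars: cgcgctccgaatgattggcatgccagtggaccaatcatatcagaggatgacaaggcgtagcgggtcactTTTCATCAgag
Yars: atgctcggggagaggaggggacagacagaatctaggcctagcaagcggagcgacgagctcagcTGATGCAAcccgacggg
Kars: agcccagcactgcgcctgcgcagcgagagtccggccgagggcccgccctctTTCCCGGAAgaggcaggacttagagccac

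Levels differed widely among the synthetases before any comparison of groups. Compared per length, as CPM per kilobase of exon averaged over the 8 libraries, Nars was highest at 121, followed by Lars2 at 119.7, Sars at 115 and Wars at 104. The lowest were Ears2 at 1.23, Vars2 at 1.42 and Fars2 at 1.54 CPM per kilobase. Lars2, the mitochondrial leucyl enzyme, was the one mitochondrial gene among the first 18, and the other 16 stood at rank 19 or below. Wars ranked second of 36 in LPS_IFNg_TubB and in TubB, and seventh in LPS_IFNg and in mock. Neighbours in this order often overlapped: Nars and Lars2 did so in LPS_IFNg_TubB, TubB and mock.

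**Figure D1:**
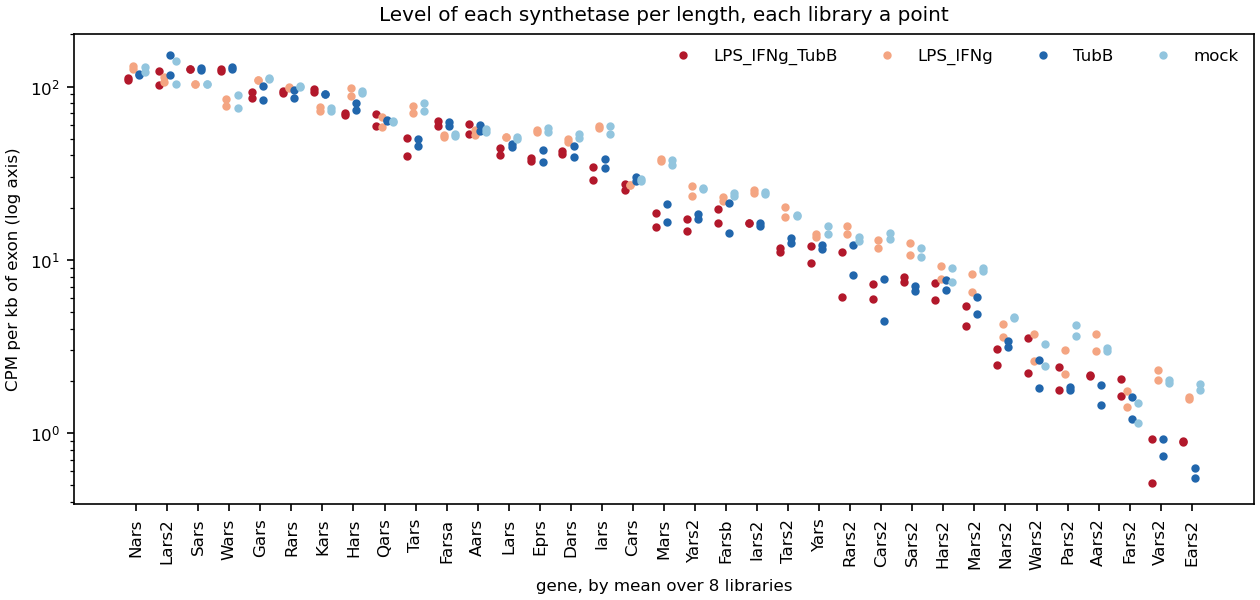
Level of 35 of the 36 synthetases in CPM per kilobase of exon (log axis), 1 point per library, coloured by labelled group and ordered by the mean over the 8 libraries. Nars, Lars2, Sars and Wars lead, and Fars2, Vars2 and Ears2 are lowest.

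TubB was set against mock to see what differed with the compound alone, as labelled. Cytosolic synthetases moved in both directions, and mitochondrial ones moved down or were not called. By edgeR's quasi-likelihood test with Benjamini-Hochberg adjustment over the 11081 genes tested, called under 0.05, 3 of the 19 cytosolic genes rose (15.8%) and 8 fell (42.1%). Of the 17 mitochondrial genes 0 rose and 12 fell (70.6%). Over all genes tested, 26.3% rose and 24.9% fell. The median log2 fold change was -0.15 for cytosolic and -0.61 for mitochondrial synthetases, beside -0.01 for all genes tested. Without TubB replicate 1 or mock replicate 1, fewer cytosolic genes were called lower, and fewer of all genes tested were too. Without Gars and Kars the cytosolic counts were 2 higher and 7 lower of 17. In bulk RNA, fewer cells making a transcript and less of it per cell cannot be told apart.

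The contrast of LPS_IFNg_TubB with LPS_IFNg shares no library with the first, although all 8 libraries share 1 estimate of the spread. Here 4 of 19 cytosolic genes rose (21.1%) and 9 fell (47.4%), while 0 of 17 mitochondrial genes rose and 12 fell (70.6%). Over all genes tested, 26.2% rose and 25.0% fell. The medians were -0.23 for cytosolic and -0.61 for mitochondrial synthetases, against -0.01 for all genes tested. Leaving out 1 library changed the number of synthetases called lower. Fewer of all genes tested were called lower when a library of the 2 compared groups was left out. The lowest mitochondrial count came without LPS_IFNg replicate 2, when Mars2, Rars2, Nars2 and Aars2 were no longer called.

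The calls of the 2 contrasts overlapped. Wars, Kars and Sars rose in both, which is 100% of those that rose between TubB and mock and 75% of those that rose between LPS_IFNg_TubB and LPS_IFNg. The 18 genes that fell in both were 90% of those that fell in the first contrast and 85.7% of those that fell in the second, and 0 were called in opposite directions. The same overlap was not counted over all genes tested, so it is not read as a trait of the synthetases. Outside the overlap, Farsb and Pars2 were called in the first contrast alone, and Farsa (higher), Lars, Nars and Rars2 (lower) in the second alone. None of these 6 was called in the interaction test given further on, and several of the calls depend on single libraries or settings. Across labels, counts of LPS_IFNg_TubB and TubB libraries with the same number (mean chi-square per gene 1.94 and 2.28), and of LPS_IFNg and mock libraries with the same number (1.97 and 1.92), were closer to each other than replicates of 1 group were (2.53 to 4.62).

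**Figure D2:**
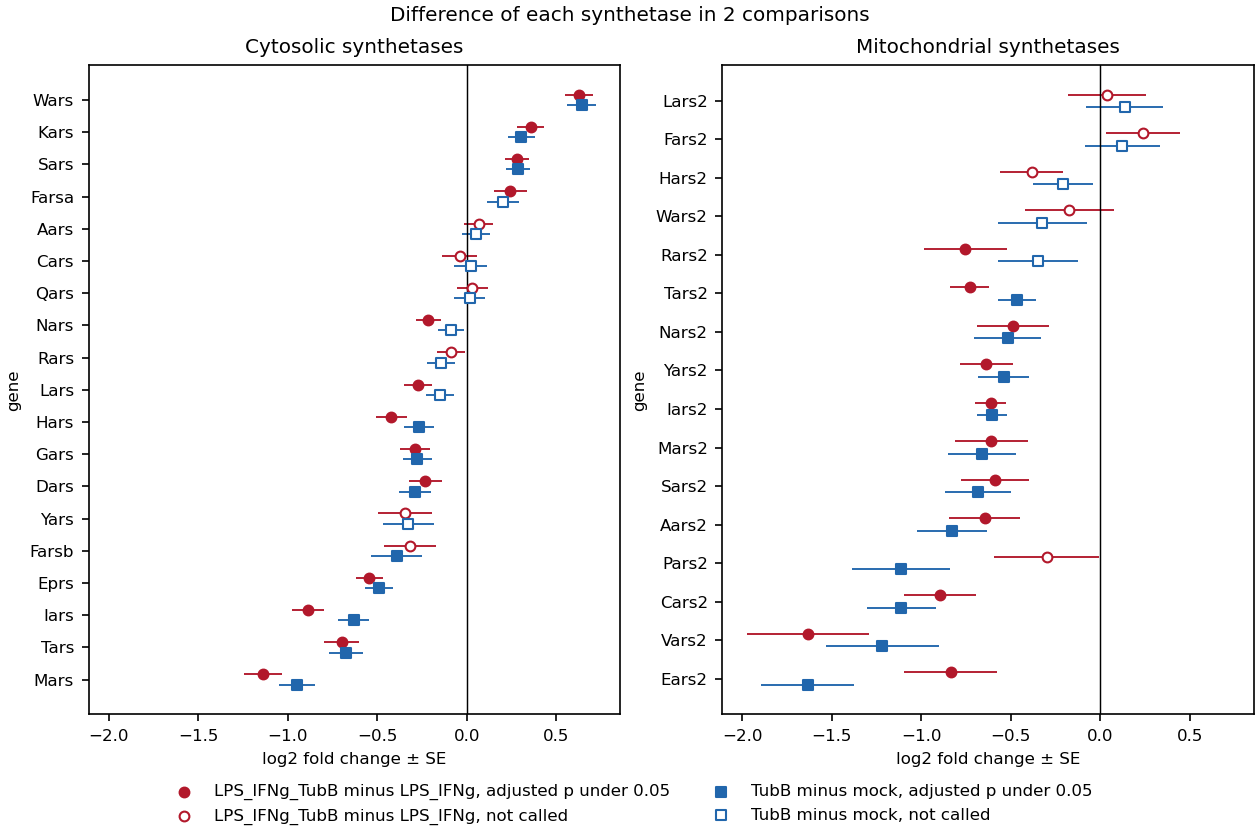
Log2 fold change with its standard error (SE) for the 19 cytosolic (left) and 16 of the 17 mitochondrial (right) synthetases in LPS_IFNg_TubB minus LPS_IFNg (red circles) and TubB minus mock (blue squares), filled where the edgeR adjusted p was under 0.05. Mitochondrial points lie mostly left of 0, with Lars2 and Fars2 as exceptions, and Wars, Kars and Sars lead the cytosolic ones on the right.

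Wars, the marker of the set (chromosome 12, 108860030 to 108894175, minus strand, GRCm38.p6), showed the largest rise. It had 356 and 366 CPM in LPS_IFNg_TubB, against 246 and 222 CPM in LPS_IFNg. It had 373 and 365 CPM in TubB, against 256 and 217 CPM in mock. All 4 libraries labelled with Tubuloside B lay above all 4 labelled without it. The log2 fold change was 0.64 ± 0.08 (SE) in TubB minus mock (edgeR adjusted p = 7.4e-08) and 0.63 ± 0.08 in LPS_IFNg_TubB minus LPS_IFNg (edgeR adjusted p = 1.4e-07). Its mitochondrial counterpart Wars2 had 24.3 and 15.2 CPM in LPS_IFNg_TubB against 25.8 and 17.8 CPM in LPS_IFNg, and 12.5 and 18.2 CPM in TubB against 22.6 and 16.9 CPM in mock. Wars2 groups overlapped and it was not called in either contrast.

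Kars, the lysyl enzyme and a member of the complex (chromosome 8, 111993439 to 112011354, minus strand), had 218 and 226 CPM in LPS_IFNg_TubB, against 168 and 179 CPM in LPS_IFNg. It had 212 and 213 CPM in TubB, against 175 and 169 CPM in mock. The groups did not overlap, and Kars rose by 0.31 ± 0.08 in TubB minus mock (edgeR adjusted p = 0.0012) and by 0.36 ± 0.08 in LPS_IFNg_TubB minus LPS_IFNg (edgeR adjusted p = 0.00027). It was the only one of the 8 complex enzymes that rose in either contrast. Sars, the seryl enzyme (chromosome 3, 108424864 to 108445259, minus strand), had 468.5 and 467 CPM in LPS_IFNg_TubB against 383 and 386 CPM in LPS_IFNg, and 473 and 464 CPM in TubB against 385.5 and 381.5 CPM in mock. It rose by 0.28 ± 0.07 in LPS_IFNg_TubB minus LPS_IFNg and by 0.29 ± 0.07 in TubB minus mock, a narrow spread around a small change. With a 1.2-fold minimum in the test, Wars was still called higher in both contrasts, whereas Kars and Sars were not.

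Phenylalanyl-tRNA synthetase is built from 2 kinds of subunit, Farsa carrying the catalytic site and Farsb its partner, and the balance of their counts differed between the groups. Farsa had 119 and 111 CPM in LPS_IFNg_TubB against 98.3 and 95.5 CPM in LPS_IFNg, and 118 and 111 CPM in TubB against 97.5 and 100.2 CPM in mock. Farsb had 42.5 and 51.2 CPM in LPS_IFNg_TubB against 60.4 and 57.1 CPM in LPS_IFNg, and 37.1 and 55.4 CPM in TubB against 60.9 and 63.2 CPM in mock. The ratio of Farsa to Farsb counts was 2.81 and 2.16 in LPS_IFNg_TubB against 1.63 and 1.67 in LPS_IFNg, and 3.18 and 1.995 in TubB against 1.60 and 1.59 in mock. The ratio lay higher in all 4 libraries labelled with Tubuloside B, with a wide spread among them. Farsa was called in LPS_IFNg_TubB minus LPS_IFNg (0.24 ± 0.09, edgeR adjusted p = 0.028) and was at 0.20 ± 0.09 in TubB minus mock (edgeR adjusted p = 0.058). Farsb was called in TubB minus mock (-0.39 ± 0.14, edgeR adjusted p = 0.024) and was at -0.32 ± 0.15 in LPS_IFNg_TubB minus LPS_IFNg (edgeR adjusted p = 0.074). In the contrast where each missed the threshold, Farsa was called with RLE factors, on rlog values and without TubB replicate 2, and Farsb with no count filter, with the compared groups alone and without LPS_IFNg_TubB replicate 2 (-0.47) or either TubB replicate. The calls under the threshold also rested on few libraries: Farsb lost its call without TubB replicate 1 (-0.16), mock replicate 1 or mock replicate 2 and was at -0.73 without TubB replicate 2, and Farsa lost its call without LPS_IFNg_TubB replicate 1 or either LPS_IFNg replicate. A numbered copy of Farsb held 107 counts.

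Among cytosolic genes that fell, Mars, the methionyl enzyme of the complex that also charges the initiator tRNA (chromosome 10, 127296221 to 127311786, minus strand), changed most. It had 72.3 and 86.6 CPM in LPS_IFNg_TubB, against 173 and 178 CPM in LPS_IFNg. It had 76.9 and 97.6 CPM in TubB, against 175 and 165 CPM in mock. Mars fell by 1.14 ± 0.10 in LPS_IFNg_TubB minus LPS_IFNg (edgeR adjusted p = 6.7e-10) and by 0.95 ± 0.10 in TubB minus mock (edgeR adjusted p = 1.0e-08). Exons of Mars overlap 71 bases of Ddit3 on the opposite strand, and the kit did not keep strand. Ddit3, a stress-response transcription factor, rose, with 43.2 and 30.6 CPM in LPS_IFNg_TubB against 19.8 and 24.8 CPM in LPS_IFNg, and 38.4 and 34.3 CPM in TubB against 21.8 and 23.9 CPM in mock. It was not called in LPS_IFNg_TubB minus LPS_IFNg without LPS_IFNg_TubB replicate 1 (0.46). The part of the overlap in these values was not tested.

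Iars, the isoleucyl enzyme of the complex (chromosome 13, 49682130 to 49734267, plus strand), had 129.5 and 155 CPM in LPS_IFNg_TubB against 268 and 261 CPM in LPS_IFNg, and 152 and 173 CPM in TubB against 267 and 239 CPM in mock. It fell by 0.89 ± 0.09 in LPS_IFNg_TubB minus LPS_IFNg and by 0.63 ± 0.09 in TubB minus mock. Tars, the threonyl enzyme (chromosome 15, 11383663 to 11399658, minus strand), had 105 and 133 CPM in LPS_IFNg_TubB against 185 and 203.5 CPM in LPS_IFNg, and 119.5 and 132 CPM in TubB against 211 and 191 CPM in mock. Tars fell by 0.70 ± 0.10 in LPS_IFNg_TubB minus LPS_IFNg and by 0.67 ± 0.10 in TubB minus mock. Eprs, the fused enzyme for glutamate and proline (chromosome 1, 185361417 to 185428360, plus strand), had 278.5 and 288 CPM in LPS_IFNg_TubB against 419 and 407 CPM in LPS_IFNg, and 274 and 320.3 CPM in TubB against 430.5 and 406.5 CPM in mock. Eprs fell by 0.54 ± 0.08 in LPS_IFNg_TubB minus LPS_IFNg and by 0.49 ± 0.08 in TubB minus mock. For these 3 genes the groups did not overlap within either contrast, and edgeR adjusted p-values ran from 2.2e-09 to 3.1e-06. The share of all genes tested whose groups did not overlap was not counted, here or for the other genes and sums so described.

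**Figure D3:**
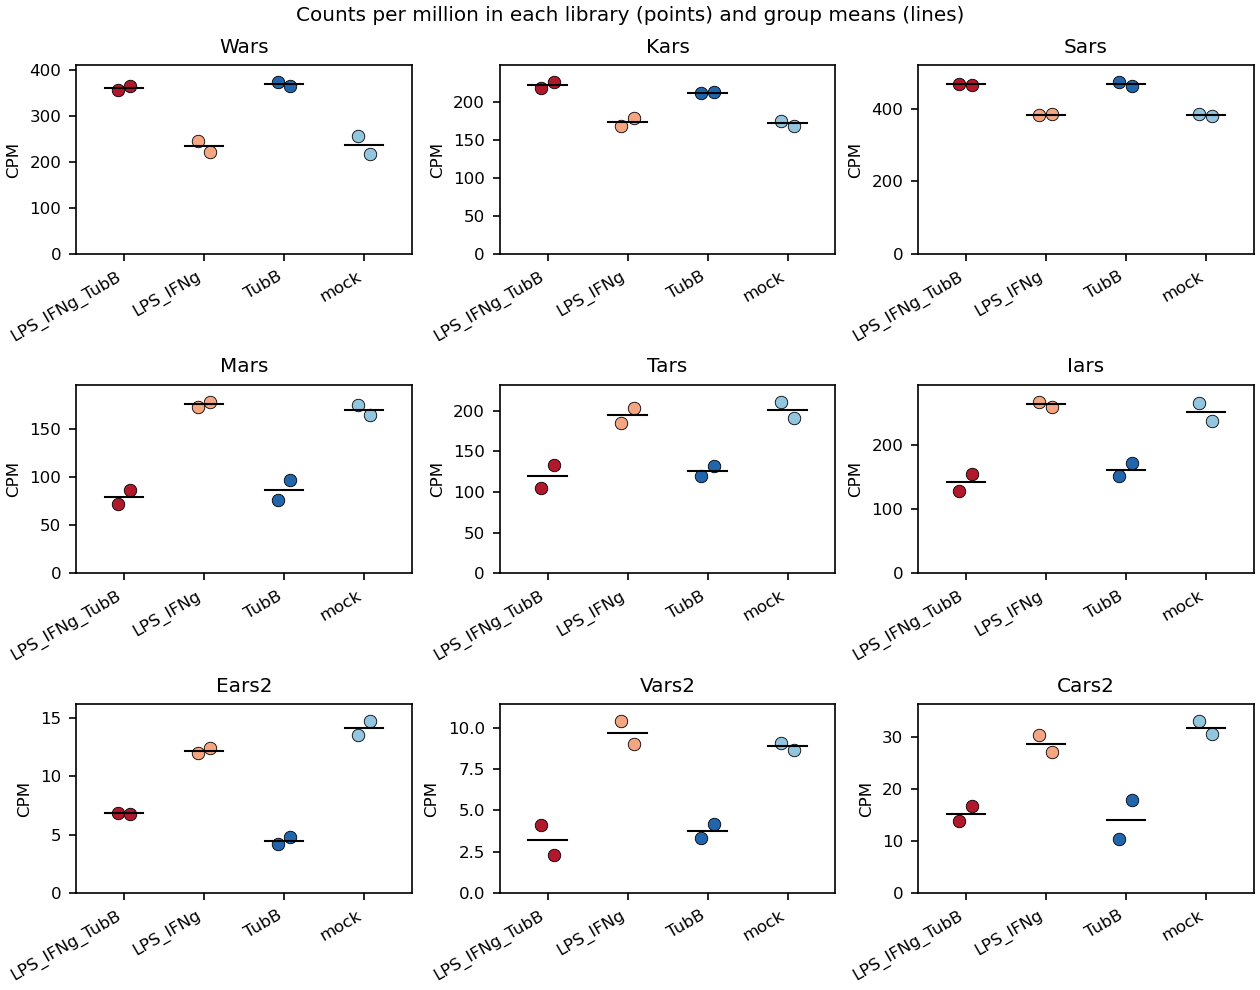
CPM in each library (points) and group means (lines) for the 3 cytosolic synthetases that rose in both contrasts, the 3 that fell most between TubB and mock, and Ears2, Vars2 and Cars2 of the mitochondrial set. Within each panel the 2 groups labelled with Tubuloside B lie on one side of the 2 without it.

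Smaller falls were seen for Hars (-0.27 ± 0.08 in TubB minus mock and -0.42 ± 0.08 in LPS_IFNg_TubB minus LPS_IFNg), Gars (-0.28 ± 0.08 and -0.29 ± 0.08) and Dars (-0.29 ± 0.09 and -0.23 ± 0.09). These enzymes charge histidine, glycine and aspartate. Single libraries decided several of these calls. In TubB minus mock, all 3 were not called without TubB replicate 1, where Gars was at -0.15 and Dars at -0.19, and Hars and Dars were not called without mock replicate 1. In LPS_IFNg_TubB minus LPS_IFNg, Gars was not called without LPS_IFNg_TubB replicate 1. Dars was not called there when any 1 of the LPS_IFNg_TubB, LPS_IFNg or mock libraries was left out, nor by DESeq2. Lars (-0.27 ± 0.08) and Nars (-0.21 ± 0.07), for leucine and asparagine, fell in LPS_IFNg_TubB minus LPS_IFNg. Lars was not called without LPS_IFNg_TubB replicate 1, nor Nars without LPS_IFNg_TubB replicate 2 or LPS_IFNg replicate 2.

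Of the 8 complex enzymes, 4 fell (50%) and 1 rose (12.5%) in TubB minus mock, and 5 fell (62.5%) and 1 rose (12.5%) in LPS_IFNg_TubB minus LPS_IFNg. Of the 11 free cytosolic genes, 4 fell (36.4%) and 2 rose (18.2%) in the first contrast, and 4 fell (36.4%) and 3 rose (27.3%) in the second. The shares over all genes tested were 24.9% lower and 26.3% higher in the first contrast, and 25.0% lower and 26.2% higher in the second. Summed over the complex, levels were 1340.2 and 1378 CPM in LPS_IFNg_TubB against 1719 and 1723 CPM in LPS_IFNg, and 1331 and 1468 CPM in TubB against 1758 and 1676 CPM in mock. The free enzymes summed to 2082 and 2163 CPM in LPS_IFNg_TubB against 2102 and 2141 CPM in LPS_IFNg, and 2142 and 2238.5 CPM in TubB against 2191 and 2099 CPM in mock. The sums of the complex did not overlap between the groups of either contrast, and those of the free enzymes did. Sums weigh abundant genes most, and Mars, Iars and Eprs, given above, fell most within the complex. Median log2 fold changes were -0.22 (complex) and -0.09 (free) in TubB minus mock. They were -0.25 and -0.21 in LPS_IFNg_TubB minus LPS_IFNg, beside -0.01 for all genes tested in each contrast. By fold of the catalytic domain, class I enzymes held 2 falls (25%) and 1 rise (12.5%) of 8 in TubB minus mock. Class II enzymes held 5 falls (50%) and 2 rises (20%) of 10. Eprs is counted in neither because it carries both folds. In LPS_IFNg_TubB minus LPS_IFNg, class I held 3 falls (37.5%) and 1 rise (12.5%), and class II 5 falls (50%) and 3 rises (30%). Median log2 fold changes of class I and class II lay close, at -0.15 and -0.18 in TubB minus mock and -0.18 and -0.22 in LPS_IFNg_TubB minus LPS_IFNg. Rars, Qars, Aars, Cars and Yars, for arginine, glutamine, alanine, cysteine and tyrosine, were called in neither contrast, and the first 4 had log2 fold changes between -0.14 and 0.07. Yars was at -0.33 ± 0.14 in TubB minus mock (edgeR adjusted p = 0.058) and at -0.35 ± 0.15 in LPS_IFNg_TubB minus LPS_IFNg (edgeR adjusted p = 0.056), where it was called lower on rlog values and without LPS_IFNg_TubB replicate 2 (-0.53).

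Of the mitochondrial enzymes, Ears2, for glutamate (chromosome 7, 122034162 to 122067094, minus strand), had the largest difference between TubB and mock, with 4.17 and 4.78 CPM in TubB against 13.5 and 14.7 CPM in mock. It had 6.89 and 6.77 CPM in LPS_IFNg_TubB against 12.02 and 12.4 CPM in LPS_IFNg. It fell by 1.64 ± 0.26 in the first contrast (edgeR adjusted p = 5.0e-06) and by 0.84 ± 0.26 in the second (edgeR adjusted p = 0.0079). Vars2, for valine (chromosome 17, 35655634 to 35667639, minus strand), had 4.13 and 2.31 CPM in LPS_IFNg_TubB against 10.4 and 9.004 CPM in LPS_IFNg, and 3.29 and 4.15 CPM in TubB against 9.07 and 8.65 CPM in mock. It fell by 1.63 ± 0.34 in LPS_IFNg_TubB minus LPS_IFNg (edgeR adjusted p = 0.0002) and by 1.22 ± 0.32 in TubB minus mock (edgeR adjusted p = 0.002). With 321 counts in all 8 libraries, Vars2 is the least deeply covered gene of the set.

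Cars2, for cysteine (chromosome 8, 11514017 to 11550781, minus strand), had 13.8 and 16.7 CPM in LPS_IFNg_TubB against 30.3 and 27.0 CPM in LPS_IFNg, and 10.3 and 17.8 CPM in TubB against 32.9 and 30.6 CPM in mock. Cars2 fell by 0.90 ± 0.20 in LPS_IFNg_TubB minus LPS_IFNg and by 1.11 ± 0.19 in TubB minus mock, and its groups did not overlap in either contrast although the TubB libraries differed from each other. Pars2, for proline (chromosome 4, 106651056 to 106655282, plus strand), had 5.71 and 5.53 CPM in TubB against 11.3 and 12.98 CPM in mock, and 5.51 and 7.43 CPM in LPS_IFNg_TubB against 9.38 and 6.79 CPM in LPS_IFNg. It fell by 1.11 ± 0.27 in TubB minus mock (edgeR adjusted p = 0.0012). In LPS_IFNg_TubB minus LPS_IFNg its groups overlapped and it was not called (-0.30 ± 0.29, edgeR adjusted p = 0.41).

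Iars2, for isoleucine, had 104 and 104 CPM in LPS_IFNg_TubB against 161 and 156.5 CPM in LPS_IFNg, and 104 and 99.9 CPM in TubB against 153 and 157.5 CPM in mock. It fell by 0.61 ± 0.08 in both contrasts. Tars2, for threonine, fell by 0.47 ± 0.11 in TubB minus mock and by 0.73 ± 0.11 in LPS_IFNg_TubB minus LPS_IFNg. Without strand, Iars2 shares 115 exon bases with Rab3gap2 on the opposite strand. The part of this overlap in the values was not tested.

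Aars2, Sars2, Mars2, Yars2 and Nars2, for alanine, serine, methionine, tyrosine and asparagine, fell by 0.52 to 0.83 on the log2 scale in TubB minus mock and by 0.49 to 0.65 in LPS_IFNg_TubB minus LPS_IFNg. Calls of Aars2, Mars2 and Sars2 in the second contrast were each lost without at least 1 library. Aars2 needed LPS_IFNg replicate 2, Mars2 needed LPS_IFNg_TubB replicate 1 and LPS_IFNg replicate 2, and Sars2 needed LPS_IFNg_TubB replicate 2 and LPS_IFNg replicate 1. Nars2 lost its call in TubB minus mock without TubB replicate 2 or either mock replicate, in LPS_IFNg_TubB minus LPS_IFNg without LPS_IFNg_TubB replicate 1, LPS_IFNg replicate 2 or either mock replicate, and in both by DESeq2. Rars2, for arginine, had 16.5 and 29.9 CPM in LPS_IFNg_TubB against 37.9 and 42.6 CPM in LPS_IFNg, and 21.96 and 32.8 CPM in TubB against 34.9 and 36.6 CPM in mock. It fell by 0.76 ± 0.23 in LPS_IFNg_TubB minus LPS_IFNg, but was at -0.42 and not called without LPS_IFNg_TubB replicate 1, at -1.28 without LPS_IFNg_TubB replicate 2, and not called without LPS_IFNg replicate 2. In TubB minus mock it was at -0.35 and not called, but was called without TubB replicate 2 (-0.69).

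Lars2, Fars2, Wars2 and Hars2 were called in neither contrast. Lars2 had 548 and 452 CPM in LPS_IFNg_TubB against 471 and 503 CPM in LPS_IFNg, and 674 and 518 CPM in TubB against 624 and 458.5 CPM in mock. Its replicates lay farther apart than its groups. Because Lars2 alone had 452 to 674 CPM, sums are given without it. The other 16 mitochondrial genes summed to 400.1 and 416 CPM in LPS_IFNg_TubB against 625 and 619 CPM in LPS_IFNg, and 389.6 and 426 CPM in TubB against 623 and 614.5 CPM in mock. These sums did not overlap between the groups of either contrast.

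**Figure D4:**
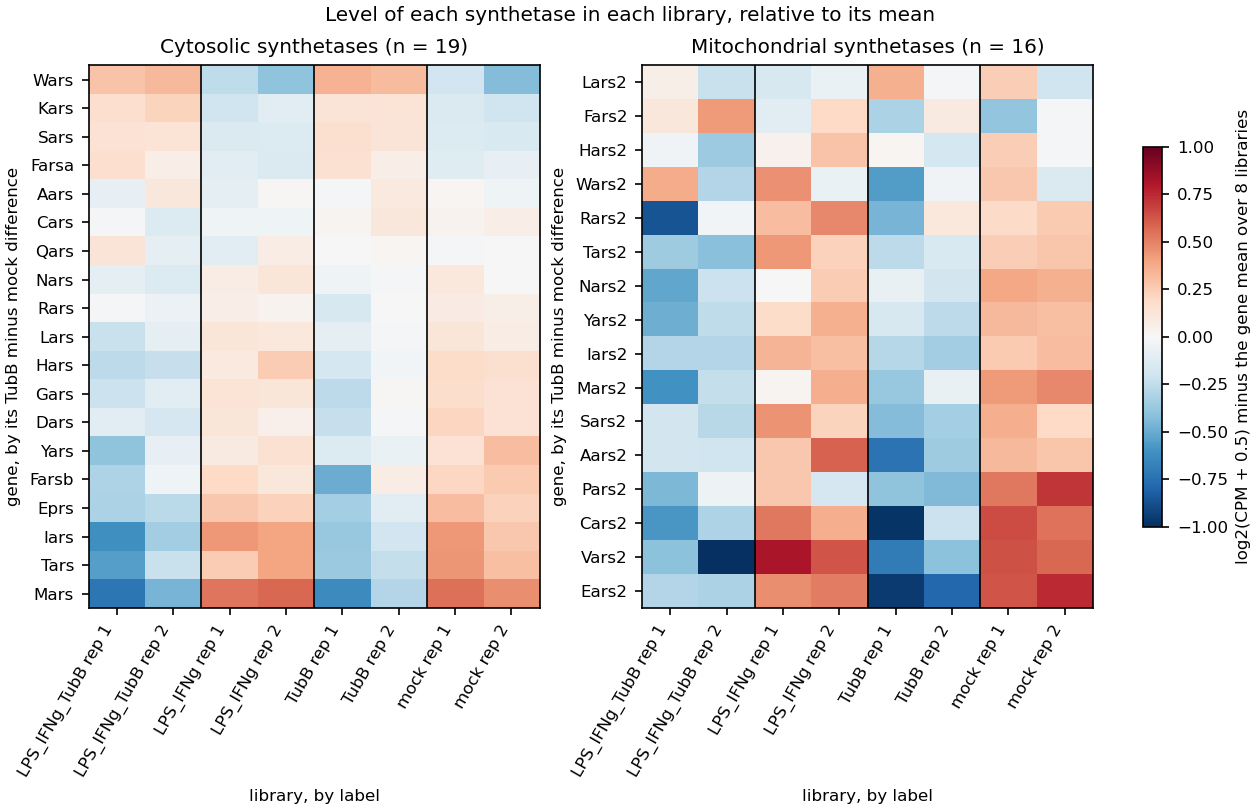
Level of 35 synthetases in each library as log2(CPM + 0.5) minus the gene's mean over the 8 libraries, with red above and blue below the mean, for cytosolic (left) and mitochondrial (right) genes ordered by their TubB minus mock difference. Mitochondrial rows are mostly blue in the LPS_IFNg_TubB and TubB columns, and Wars, Kars and Sars are red there.

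Amino acids with an enzyme of their own in each compartment allow the sets to be read pair by pair. Over 17 pairs, with Eprs set against both Ears2 and Pars2 and Fars2 against both subunits, the mitochondrial log2 fold change lay below the cytosolic one in 11 pairs in each contrast. Tryptophan and serine had cytosolic enzymes that rose in both contrasts, and the serine pair had a mitochondrial enzyme that fell in both. The ratio of Sars to Sars2 counts was 29.2 and 31.0 in LPS_IFNg_TubB against 15.2 and 18.02 in LPS_IFNg, and 35.3 and 32.4 in TubB against 16.2 and 18.1 in mock. For cysteine, alanine and tyrosine the mitochondrial enzyme fell in both contrasts and the cytosolic one was called in neither. Yars, for tyrosine, lay near the threshold (edgeR adjusted p = 0.058 in TubB minus mock and 0.056 in LPS_IFNg_TubB minus LPS_IFNg). Methionine, isoleucine, threonine and glutamate (Eprs and Ears2) had falls in both compartments in both contrasts. Leucine had a call only for its cytosolic enzyme, in LPS_IFNg_TubB minus LPS_IFNg.

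**Figure D5:**
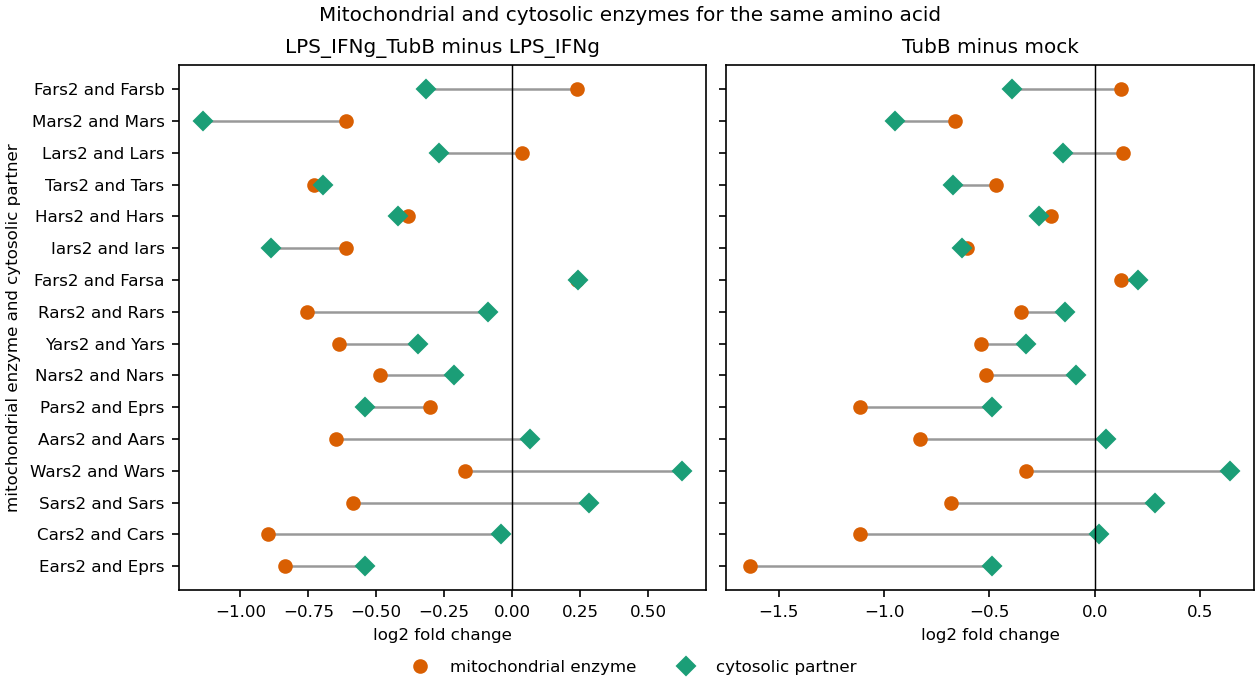
Log2 fold change of the mitochondrial enzyme (orange circles) and its cytosolic partner (green diamonds) for 16 of the 17 pairs, in LPS_IFNg_TubB minus LPS_IFNg (left) and TubB minus mock (right), joined by a line. The orange point lies left of the green one in 10 of these pairs in each panel, and the widest lines in TubB minus mock include Ears2, Cars2, Sars2 and Wars2.

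The contrasts of LPS_IFNg with mock and of LPS_IFNg_TubB with TubB ask what the stimulus did without and with the compound, as labelled, and the interaction asks whether the compound's difference depended on the stimulus. Of the 36 synthetases, 0 were called in each by edgeR, and 0 of all 11081 genes were called (0%), as with DESeq2 and limma-voom. At an unadjusted edgeR p under 0.05 there was 1 synthetase among 247 genes in LPS_IFNg minus mock, 1 among 269 in LPS_IFNg_TubB minus TubB and 2 among 277 in the interaction. Those with the smallest p-values in LPS_IFNg minus mock were Pars2 (-0.58 ± 0.26) and Mars2 (-0.25 ± 0.18). In LPS_IFNg_TubB minus TubB they were Iars (-0.19 ± 0.09) and Ears2 (0.59 ± 0.30). In the interaction they were Ears2 (0.80 ± 0.37) and Iars (-0.26 ± 0.12). All had edgeR adjusted p-values of 0.999 or more, so the unequal values of Ears2 in the 2 compound contrasts were not called different. The stimulus markers were not called in these contrasts either.

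Proteins that work with the synthetases were taken from lists written with earlier results of these data known. Of the 3 scaffold genes of the complex, Eef1e1 fell, with 44.1 and 44.5 CPM in LPS_IFNg_TubB against 74.7 and 68.6 CPM in LPS_IFNg, and 38.9 and 38.7 CPM in TubB against 80.4 and 72.4 CPM in mock. Its log2 fold changes were -0.70 ± 0.12 in LPS_IFNg_TubB minus LPS_IFNg and -0.98 ± 0.12 in TubB minus mock, whereas Aimp1 and Aimp2 were called in neither contrast. Of 11 relatives that charge, edit or amidate, 0 rose and 6 fell (54.5%) in each contrast. Over all genes tested, 26.3% rose and 24.9% fell in TubB minus mock, and 26.2% rose and 25.0% fell in LPS_IFNg_TubB minus LPS_IFNg. The largest falls in TubB minus mock were those of Tarsl2, a threonyl synthetase homologue (-1.67 ± 0.24), Aarsd1, an editing-domain relative of Aars (-1.14 ± 0.14), Pstk, a kinase on the route to selenocysteine (-0.96 ± 0.28), and Gatb, a subunit of the mitochondrial glutamyl-tRNA amidotransferase (-0.77 ± 0.13). In LPS_IFNg_TubB minus LPS_IFNg they fell by 1.35, 1.23, 1.04 and 0.67, and Pstk was not called without LPS_IFNg_TubB replicate 1 or LPS_IFNg replicate 2 and was at -1.60 without LPS_IFNg_TubB replicate 2.

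Elongation factors carry charged tRNA to the ribosome or move it. Over all genes tested, 24.9% fell and 26.3% rose in TubB minus mock, and 25.0% fell and 26.2% rose in LPS_IFNg_TubB minus LPS_IFNg. Of 5 tested cytosolic genes 0 rose and 3 fell (60%) in each contrast. These were Eef1a1 (-0.25 ± 0.06 in TubB minus mock and -0.28 ± 0.06 in LPS_IFNg_TubB minus LPS_IFNg), Eef1g (-0.24 ± 0.07 and -0.25 ± 0.07) and Eef1d (-0.51 ± 0.08 and -0.48 ± 0.08). With a 1.2-fold minimum in the test, Eef1a1 and Eef1g were called in neither contrast. Of 9 mitochondrial translation factors 3 fell (33.3%) in TubB minus mock and 4 (44.4%) in LPS_IFNg_TubB minus LPS_IFNg, and 0 rose. The mitochondrial factors Tsfm (-0.99 ± 0.13 and -0.66 ± 0.13), Gfm1 (-0.50 ± 0.09 and -0.58 ± 0.09) and Tufm (-0.44 ± 0.09 and -0.48 ± 0.09) fell in both.

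The integrated stress response, which acts through phosphorylation of the initiation factor eIF2 and through Atf4, had calls in both directions, as all genes tested had. Of 18 genes, 9 rose (50%) and 6 fell (33.3%) in TubB minus mock, and 8 rose (44.4%) and 6 fell (33.3%) in LPS_IFNg_TubB minus LPS_IFNg, beside 26.3% and 24.9% of all genes in the first contrast and 26.2% and 25.0% in the second. Among those that rose in TubB minus mock were Atf3, a transcription factor (3.19 ± 0.20), Ppp1r15a, a phosphatase subunit acting on eIF2 (2.71 ± 0.17), Eif2ak2, the interferon-induced eIF2 kinase (1.76 ± 0.12), and Sesn2, a leucine sensor (1.52 ± 0.16). The largest falls were in enzymes of serine and glycine synthesis, Shmt2 (-1.44 ± 0.14), Phgdh (-0.88 ± 0.08) and Psat1 (-0.84 ± 0.19), and in the kinase Eif2ak3 (-0.55 ± 0.17). Psat1 was not called without mock replicate 1, nor Eif2ak3 without mock replicate 1 or TubB replicate 2 (-0.30). The other genes of the list, among them Atf4 and the asparagine synthetase gene Asns, are named after their values were seen. Rises were called in TubB minus mock and LPS_IFNg_TubB minus LPS_IFNg for Trib3 (1.35 and 1.47), Nupr1 (1.34 and 1.63), Atf5 (0.75 and 0.66) and Ddit3 (0.66 and 0.71). Mthfd2 fell in both (-0.48 and -0.59), and Chac1 was called in neither. Eif2ak1 was called higher in the first contrast alone, and Eif2ak4 lower in the second alone. Atf4 had 304 and 279 CPM in LPS_IFNg_TubB against 271 and 287 CPM in LPS_IFNg, and 318 and 299 CPM in TubB against 263 and 299 CPM in mock, and was not called. Asns fell by 0.38 ± 0.11 in TubB minus mock and by 0.32 ± 0.11 in LPS_IFNg_TubB minus LPS_IFNg. It was at -0.19 and not called without TubB replicate 1, at -0.62 without TubB replicate 2, and not called without mock replicate 2, LPS_IFNg_TubB replicate 1 or LPS_IFNg replicate 2.

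Tryptophan is both the substrate of Wars and the substrate of the kynurenine pathway. Of 10 genes for its breakdown and uptake, 4 had enough counts to test. Among them, Slc16a10 (-0.03 ± 0.08 in TubB minus mock and -0.13 ± 0.08 in LPS_IFNg_TubB minus LPS_IFNg) and Afmid (-0.42 ± 0.40 and 0.88 ± 0.40) were called in neither contrast. Ido1 and Kynu held 0 counts in every library. Slc7a5, the transporting subunit of a large neutral amino acid carrier, had 28.5 and 37.5 CPM in LPS_IFNg_TubB against 125 and 137 CPM in LPS_IFNg, and 29.9 and 36.8 CPM in TubB against 143 and 139 CPM in mock. Slc7a5 fell by 1.97 ± 0.12 in LPS_IFNg_TubB minus LPS_IFNg and by 2.06 ± 0.12 in TubB minus mock. Its partner chain Slc3a2 moved the other way, with 488 and 443 CPM in LPS_IFNg_TubB against 241 and 285 CPM in LPS_IFNg, and 490.2 and 444 CPM in TubB against 260.4 and 294 CPM in mock. Slc3a2 rose by 0.82 ± 0.09 in LPS_IFNg_TubB minus LPS_IFNg and by 0.75 ± 0.08 in TubB minus mock.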

How the data were processed

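Per the file headers, the deposited table holds raw read counts made by featureCounts 2.0.1 from read pairs over exons, grouped by gene, with an NCBI RefSeq annotation of GRCm38.p6. No strand or multi-mapping option is recorded. By the program's defaults both strands are then counted together, and multi-mapped reads and reads on 2 genes are dropped. Per the submitters' processing notes, STAR 2.7.0 aligned the reads. Per the labels' protocols, the kit was non-directional with poly(A) selection. A deposited table of rlog values (log2 scale, regularised by the authors) served as an alternative only.

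Counts were fitted with edgeR 4.0.16 in R 4.3.3 (TMM, filterByExpr by group with minimum count 10 and minimum total 15, robust quasi-likelihood, all 8 libraries, group as the only term, 4 residual degrees of freedom). The filter kept 11081 of 42454 genes and all 36 synthetases. P-values were adjusted by Benjamini-Hochberg over all genes tested and called under 0.05. CPM are counts scaled by library totals and TMM factors (0.909 to 1.083), and SEs are log2 fold changes divided by the root of F. Levels between genes were compared per kilobase of the deposited exon length. Library totals of 4767894 to 8413834 counts limit precision most for genes under about 10 CPM. The fits were tested on simulated data.

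Alternatives were RLE factors, no count filter, 1 CPM in 2 libraries, compared groups alone, a replicate term, DESeq2 1.42.0, limma-voom and limma on rlog (limma 3.58.1), omission of each library in turn, and a test against a 1.2-fold minimum. The same alternatives for the related lists were added after seeing the data. The members and lists were chosen with earlier results of these data known. Per-library values are given for Wars and, in TubB minus mock, for up to 4 called genes of each class with the largest rise and fall. Other members and overlapping neighbours were named after their values were seen. Values of 1 mitochondrial gene are not reported singly here, although group counts, medians and sums include it.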

Additional observations from a re-analysis of the deposited data

How the results depend on the processing

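With deposited rlog values, which are shrunken by construction, the mitochondrial median was -0.38 in TubB minus mock and -0.36 in LPS_IFNg_TubB minus LPS_IFNg, and the cytosolic median in LPS_IFNg_TubB minus LPS_IFNg was -0.145. With a 1.2-fold minimum, 1 cytosolic synthetase was called higher in each contrast, and 4 were called lower in TubB minus mock and 5 in LPS_IFNg_TubB minus LPS_IFNg. Among mitochondrial synthetases only Nars2 lost its call, in both contrasts. Of all 11081 genes, 2175 were then called higher and 1881 lower in TubB minus mock, and 2183 and 1932 in LPS_IFNg_TubB minus LPS_IFNg. Leaving out 1 library at a time left 4 to 8 cytosolic genes called lower in TubB minus mock. Under the same omissions the log2 fold change changed sign for Lars2 (-0.0704 to 0.375), Cars (-0.0172 to 0.066) and Fars2 (-0.12 to 0.33) in TubB minus mock. In LPS_IFNg_TubB minus LPS_IFNg it did so for Qars (-0.0747 to 0.14), Lars2 (-0.10 to 0.17), Wars2 (-0.52 to 0.15), Cars (-0.0896 to 0.0195) and Aars (-0.0384 to 0.16). None of these had been called. The cause was not tested. Of the other values for single synthetases, 1102 kept direction and call, 59 lost a call and 16 gained one. With the replicate number as a block, 2941 genes were called higher and 2788 lower in TubB minus mock, and 2940 and 2813 in LPS_IFNg_TubB minus LPS_IFNg. Deviations of same-numbered libraries correlated at -0.05 to 0.15 over 6 group pairs, so the numbers were not taken to pair the samples. By chi-square, however, same-numbered libraries of LPS_IFNg_TubB and TubB, and of LPS_IFNg and mock, were the closest. With the block, Yars (-0.33 and -0.36) was called lower in both contrasts, Rars2 (-0.39) in TubB minus mock and Farsb (-0.33) in LPS_IFNg_TubB minus LPS_IFNg. Leaving out a library leaves its group with 1 sample, assumed to vary like the other groups. At low depth, as for Vars2, Pars2 and Ears2, smaller differences were not detectable.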
